A study of Caenorhabditis elegans with 2 samples.

Results

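The genes described here are the vesicle sorting genes of *Caenorhabditis elegans* whose names start with vps-, snx- or rab-. The ce11 annotation (Ensembl release 115) holds 58 of them among 19985 protein-coding genes, namely 31 vps, 7 snx and 20 rab genes. The genes were chosen by name alone, so relatives with other names are not counted among them. Each was described by the strongest peak with a summit no more than 1000 bp upstream or 200 bp downstream of one of its transcript starts, called its promoter window here.

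The vps genes (vacuolar protein sorting) encode protein complexes that sort cargo at endosomes and tether vesicles to their target membranes. The snx genes encode sorting nexins, which bind phosphoinositide lipids on endosomes and help to recycle cargo. The rab genes encode small GTPases, each of which marks particular membranes and recruits effectors for budding, movement and fusion.

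The peaks came from ChIP-seq of EGL-18, a transcription factor of the GATA family with known roles in epidermal seam cells and the vulva. The worms were of strain RW12252, in which a TY1, EGFP and 3xFLAG tag was inserted by CRISPR into *egl-18* on chromosome IV (st12252), and an antibody against GFP was used for the precipitation. Whole young adults were collected at 63 h, after growth from larvae that had been starved at the first stage following bleaching. Both samples, biological replicates 1 and 2, belong to this 1 group and carry the tag, and no control list was analysed here. Since whole animals were used, the cells in which EGL-18 occupied a site cannot be told apart.

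Each replicate has a ranked and a thresholded peak list, and the series has lists derived from the alignments of both replicates. The peaks of a ranked list carry an irreproducible discovery rate (IDR), which is low for a peak that ranks high and alike in paired inputs. A thresholded list holds peaks past a limit, but not always all of them. In the series ranked list, some peaks at an IDR of 0.01 or less were absent from the thresholded list. None of these had its summit in the promoter window of a gene described here. The signal of a peak is its deposited height, whose scale is unstated, and it was compared only within a list. The peaks of the series ranked list numbered 117695, of which 99.97% had their summit within 1 bp of the centre of the interval. Depth is unknown, because the lists hold no read counts. The series lists use the reads of both replicates, and the inputs behind the series thresholded list were not tied to single replicates.

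Of the 58 genes, 5 had a summit of the series thresholded list in their promoter window, which is 8.62% (exact 95% interval 2.86 to 18.98), beside 1.87% of all protein-coding genes. These were *vps-25*, *rab-7*, *vps-39*, *vps-60* and *vps-32.1*. By name, 4 of 31 vps genes (12.9%, interval 3.63 to 29.8), 0 of 7 snx genes (upper bound 40.96%) and 1 of 20 rab genes (5.0%, interval 0.127 to 24.9) were listed. The intervals cover the number of genes only, and those of the 3 name classes overlap. A looser limit, an IDR of 0.05 or less in the ranked list, was chosen after the values were seen. It added *vps-51*, *rab-14*, *vps-24* and *vps-37*, which gives 9 of 58 genes (15.5%, interval 7.35 to 27.4), beside 5.02% of all protein-coding genes. Of these, *vps-51* passed narrowly, at an IDR of 0.049.

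The lists differ in how strictly they were made, and the count of members moved with them. In the conservative series list, 3 of the 58 genes (*rab-7*, *vps-25* and *vps-39*) were listed, beside 1.6% of all genes. Of the replicates' own thresholded lists, that of replicate 1 held 0 members, beside 0.545% of all genes. That of replicate 2 held 1, *vps-25*, beside 0.751%. No member was in both replicates' thresholded lists, beside 0.415% of all genes. With 58 genes, a count of 0 allows a share of up to 6.16%, so the absence from both lists does not set the members apart from other genes.

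The member with the highest signal was *vps-25*, which encodes a subunit of ESCRT-II, 1 of the complexes that sort ubiquitinated membrane proteins into vesicles inside the late endosome. Its peak (chrI:12736651-12736926, ce11) had a signal of 96.0 in the series ranked list, and its summit lay 7 bp upstream of a transcript start. That start is an internal one: the summit lay inside the gene, and *vps-25* was not listed when only the most 5′ start of each gene was used. In the replicates' own ranked lists the strongest peaks had signals of 44.8 in replicate 1 and 51.1 in replicate 2, with summits 27 bp apart. These placed *vps-25* at percentile 98.9 of all protein-coding genes in replicate 1 and 99.3 in replicate 2, where a gene with no peak counts as lowest. It ranked 142nd among all protein-coding genes in the series list. Both replicates therefore had this promoter near the top of their own list, although only replicate 2 had it above threshold.

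The other 4 listed members had lower signals, from 73.1 to 81.9. *rab-7*, which encodes the Rab of late endosomes and lysosomes, had a peak at chrII:11967565-11967840 with a signal of 81.9 and the highest possible score of 1000. Its replicates' signals were 45.1 and 31.4, in replicates 1 and 2, with summits 20 bp apart. *vps-39* encodes a subunit of HOPS, the tether that joins late endosomes to lysosomes. Its peak at chrV:14038753-14039028 had a signal of 75.8, with 36.2 in replicate 1 and 39.6 in replicate 2 and summits 2 bp apart. Each of these genes thus had an overlapping peak in both replicates.

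*vps-60*, which encodes a protein related to the ESCRT-III subunits, had a peak at chrV:8606366-8606641 with a signal of 73.5. Its signals were 47.1 in replicate 1, the highest of any member there, and 27.9 in replicate 2, with summits 59 bp apart. *vps-32.1* encodes the main filament-forming subunit of ESCRT-III, which pinches off vesicles into the endosome. Its peak at chrII:6588998-6589273 had a signal of 73.1, with 31.7 in replicate 1 and 41.7 in replicate 2 and summits 14 bp apart. The scores of these genes were 935 and 928, against 914 for *vps-39*, and a score of 830 corresponds to an IDR of 0.01. The next members by score were *rab-14* with 763 and *vps-24* with 755. As IDR these are 0.0145 and 0.0152, beside 0.00629 for *vps-39*, so members lay not far from that limit on either side.

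The sequences under 4 listed summits and that of *rab-14* are shown as examples of windows with and without the motifs counted below. They are 151 bp of the WBcel235 assembly (ce11, NCBI RefSeq sequence) centred on the summit, 5′ to 3′ on the strand of the gene. They lie at chrII:11967628-11967778 (minus strand) for *rab-7*, chrV:14038816-14038966 (minus) for *vps-39* and chrV:8606429-8606579 (minus) for *vps-60*. Those of *vps-32.1* and *rab-14* lie at chrII:6589061-6589211 (plus) and chrX:15606912-15607062 (minus). Capitals mark matches on either strand to a GATA motif or to a CG-rich set. The GATA motif is GATA with A or T before it and A or G after it. The CG-rich set holds CGCGCA and also ACGCAG and also AGCGCG and also ACGCGC, and matches to it can overlap.
rab-7: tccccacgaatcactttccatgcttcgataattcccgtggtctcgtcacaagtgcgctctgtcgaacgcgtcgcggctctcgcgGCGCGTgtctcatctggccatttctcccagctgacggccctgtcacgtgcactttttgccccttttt
vps-39: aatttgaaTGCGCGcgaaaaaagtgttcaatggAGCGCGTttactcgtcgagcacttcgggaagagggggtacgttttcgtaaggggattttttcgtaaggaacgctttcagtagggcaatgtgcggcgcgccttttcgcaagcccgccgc
vps-60: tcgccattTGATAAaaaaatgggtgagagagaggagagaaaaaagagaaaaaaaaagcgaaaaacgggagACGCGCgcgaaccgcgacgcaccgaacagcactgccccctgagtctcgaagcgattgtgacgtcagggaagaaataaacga
vps-32.1: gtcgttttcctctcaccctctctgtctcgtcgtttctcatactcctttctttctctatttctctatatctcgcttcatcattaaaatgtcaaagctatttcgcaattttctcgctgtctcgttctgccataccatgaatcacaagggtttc
rab-14: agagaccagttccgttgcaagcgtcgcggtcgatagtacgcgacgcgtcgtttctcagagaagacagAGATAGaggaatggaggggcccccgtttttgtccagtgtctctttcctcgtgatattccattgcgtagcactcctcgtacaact

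In these windows *vps-60* held TGATAA starting at base 9 and ACGCGC at base 71. *rab-14* held AGATAG at base 68. *rab-7* held GCGCGT, the reverse complement of ACGCGC, at base 85, and CACGTG, an E-box, in lower case at base 128. *vps-39* held TGCGCG at base 9 and AGCGCG and GCGCGT, which overlap, at bases 34 and 35. *vps-32.1* held no match to either set.

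A GATA match, the letters bound by GATA factors, was found at 1 of the 5 listed members, 2 of the 9 at an IDR of 0.05 and 13 of the 53 with any ranked promoter peak (24.5%). Over all genes, windows of the same length held one in 13.8% of the 305 promoter peaks of the thresholded list, 16.97% of the 925 promoter peaks at an IDR of 0.05 and 26.7% of the strongest peaks of every gene. The CG-rich letters, which were chosen from earlier results on these data, were found at 3 of 5, 5 of 9 and 13 of 53 members (24.5%). Their shares over all genes were 47.5%, 31.6% and 12.8%. GAGAGA was found at 2 of 5, 2 of 9 and 7 of 53 members, beside 26.9%, 20.8% and 10.6%. CACGTG was at *rab-7* alone among the 53 members, beside 3.28%, 3.03% and 3.09%. A match here is a run of letters and not a shown binding site.

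Base composition moved with signal in members and in all genes. The 9 members at an IDR of 0.05 had a median GC content of 49.0% (range 41.1 to 57.6), and the other 44 members with a peak 38.7% (25.2 to 47.7). All promoter peaks at that limit had a median of 47.0%, and the strongest peaks of every gene 39.1%. The part of base composition in the signal was not tested.

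The median signal of members was close to that of all genes, while more of them lay at the upper end. A ranked summit of any height lay in the promoter window of 53 of 58 members (91.4%), beside 82.4% of all protein-coding genes, so a ranked peak of some height was common in both. The median signal of these 53 members was 32.4 (exact 95% interval 25.7 to 39.5) and that of all 16469 genes with a peak 30.3, which the interval holds. Members' quartiles were 21.5 and 45.3, and those of all genes 21.8 and 40.2. At the upper end, 11 of 58 members (18.97%) were at or above the 90th percentile of all protein-coding genes by signal. In each replicate's own ranked list 10 members (17.2%) were at or above that percentile.

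The name classes were ordered vps, rab, snx by median signal, with wide overlap. Of the 31 vps genes, 30 had a peak, with a median of 34.8 and a range of 10.4 to 96.0. The 17 rab genes with a peak had a median of 31.3 and a range of 17.7 to 81.9. The 6 snx genes with a peak had a median of 16.2 and a range of 10.1 to 36.2, so no snx gene reached the 90th percentile of all genes with a peak (50.7). Those at or above the 90th percentile of all protein-coding genes were 8 vps, 0 snx and 3 rab genes. The snx median rests on 6 genes, and the highest, *snx-17*, lay above the median of all genes.

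**Figure D1:**
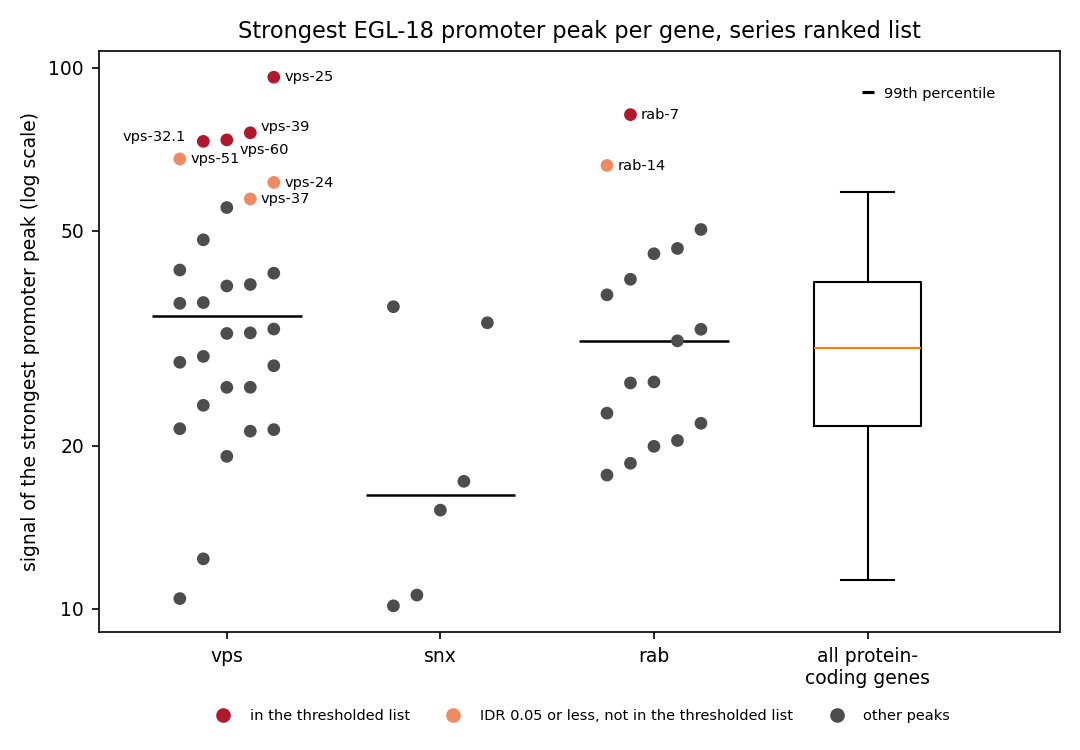
Signal of the strongest promoter peak of each vps, snx and rab gene (points, log scale, horizontal lines at the medians of 34.8, 16.2 and 31.3), with all protein-coding genes at the right as a box of quartiles around the median of 30.3 and whiskers at the 5th and 95th percentiles. Red points are the 5 genes of the thresholded list and orange points the 4 added at an IDR of 0.05, all of them vps or rab genes.

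The ESCRT machinery is the largest role, with 11 members. Of these, 3 were listed, beside 1.87% of all protein-coding genes, and 5 passed an IDR of 0.05, beside 5.02%. All 11 had a ranked peak, beside 82.4% of all genes, with a median signal of 32.9, beside 30.3. The 5 are spread over its layers: *vps-37* (57.2) encodes an ESCRT-I subunit, *vps-25* an ESCRT-II subunit, and *vps-32.1*, *vps-24* (61.4) and *vps-60* ESCRT-III and a related protein. Partners in the same complexes had lower peaks. The other ESCRT-II subunits *vps-36* and *vps-22* had 32.3 and 21.3, the ESCRT-I subunit *vps-28* had 12.4, and the ESCRT-III subunits *vps-2* and *vps-20* had 32.9 and 21.5. *vps-4*, which encodes the ATPase that takes ESCRT-III apart, had 28.1. Signal at 1 subunit therefore did not extend to all subunits of its complex. The summits assigned to *vps-24* and *vps-32.1* lay nearer to the starts of *pigb-1* and *icd-1*. Which of the genes these peaks belong to was not tested.

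The tethers HOPS and CORVET share a core (*vps-11*, *vps-16*, *vps-18* and *vps-33*) and differ in further subunits. Of their 8 genes, 1 was listed, beside 1.87% of all protein-coding genes. Their median signal was 38.3, beside 30.3 for all genes with a peak. The HOPS-specific genes *vps-39* and *vps-41* had 75.8 and 55.1, and *vps-8*, specific to CORVET, had 39.8. The core genes *vps-11*, *vps-18* and *vps-16* had 41.7, 36.7 and 29.3. The pair of Vps33 genes differed, with 36.8 at *vps-33.2* and 19.1 at *vps-33.1*. The score of *vps-41* was 418, and the strongest promoter peaks of the replicates lay 2805 bp apart, at different starts of the gene.

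The retromer core, which retrieves cargo from endosomes, had 0 of 3 genes listed, beside 1.87% of all protein-coding genes. Its signals were 39.5 at *vps-29*, 32.4 at *vps-26* and 25.7 at *vps-35*. GARP and EARP tether vesicles at the Golgi and at recycling endosomes. Of their 5 genes, *vps-51*, a subunit of both, stood at 67.8, with 33.7 in replicate 1 and 36.5 in replicate 2. The others had 48.1 (*vps-53*), 28.6 (*vps-54*), 25.7 (*vps-50*) and 21.4 (*vps-52*). *vps-15*, which encodes the regulatory subunit of the endosomal phosphatidylinositol 3-kinase, had 42.3, while *vps-34*, its catalytic subunit, had no summit in its window in the series ranked list or in that of either replicate. *vps-45*, which encodes a regulator of SNARE proteins, had 23.8, and the lipid transfer gene *vps-13* had 10.4.

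None of the 7 sorting nexin genes passed an IDR of 0.05 (upper bound 40.96%), beside 5.02% of all protein-coding genes. With 7 genes, this absence does not set them apart from other genes. *snx-17*, known in mammals for the recycling of receptors, had 36.2, and *snx-13* had 33.8. *snx-1*, which encodes a BAR domain partner of retromer, had 17.2 and *snx-14* 15.2. *snx-27* and *snx-3*, both of which work with retromer in cargo recycling, had 10.6 and 10.1. *snx-6*, the other BAR domain gene, had no ranked series summit and a peak of 18.3 in replicate 2 alone. Only *snx-13* had a promoter peak in both replicates' ranked lists, and its replicate peaks lay 2221 bp apart.

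Among the Rabs, only *rab-7* and *rab-14* passed an IDR of 0.05, both from the group of 4 endosomal and lysosomal Rabs. Of these 4 genes, 2 thus passed that limit, beside 5.02% of all protein-coding genes, and 1 was listed (*rab-7*), beside 1.87%. The summit assigned to *rab-7* lay nearer to the start of *W03C9.5*, and which gene it belongs to was not tested. *rab-14*, whose product acts between endosomes and the Golgi, had 66.0, with 25.8 in replicate 1 and 39.7 in replicate 2. *rab-21* had 26.3, and *rab-5*, which encodes the early endosome Rab, had no ranked summit in its window. The endoplasmic reticulum and Golgi group had 7 of 8 genes with a peak, beside 82.4% of all genes, and none listed. Its median was 38.0, beside 30.3 for all genes with a peak. Its highest were *rab-19* (50.2) and *rab-18* (46.3). *rab-19* was, like *rab-7* and *rab-14*, at or above the 90th percentile of all protein-coding genes. The paralogs *rab-6.2* and *rab-6.1* of this group had 40.6 and 26.1. *rab-30* had no series summit and a peak of 23.04 in replicate 1 alone. The 5 recycling and surface delivery Rabs ran from 17.7 at *rab-8* to 32.9 at *rab-11.1*, with 31.3 at its paralog *rab-11.2*. The synaptic vesicle gene *rab-3* had 45.3, *rab-37* had 18.6 and the cilium gene *rab-28* had no ranked summit.

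**Figure D2:**
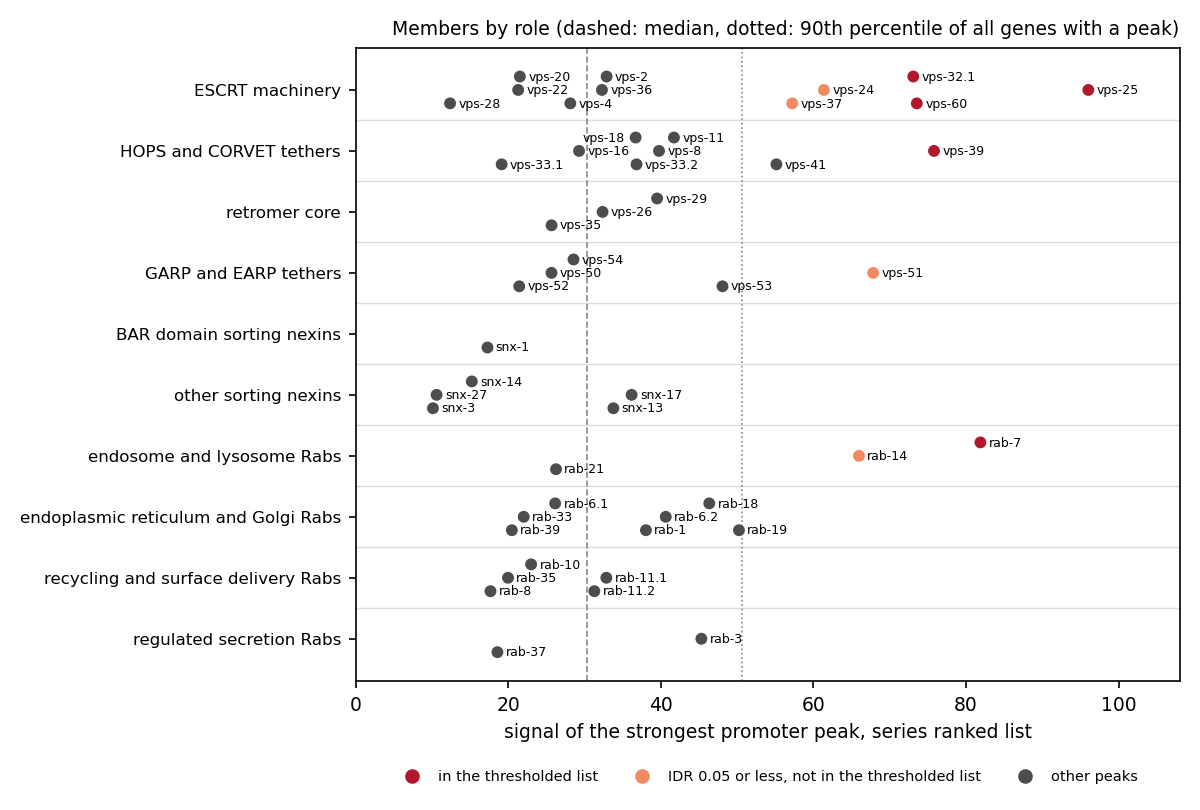
Signal of the strongest promoter peak (horizontal axis, series ranked list) of each member, by role, with lines at the median (30.3) and the 90th percentile (50.7) of all genes with a peak. ESCRT genes hold 3 of the 5 listed genes (red), the sorting nexins all lie below the dotted line, and genes of other roles are not drawn.

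The replicates shared part of the members. A promoter peak was in both replicates' ranked lists for 28 of 58 members (48.3%), beside 39.3% of all genes. Of the 28, 16 were vps, 1 snx and 11 rab genes. A further 9 had a peak in replicate 1 alone, 12 in replicate 2 alone and 9 in neither. Across the 28, rho (Spearman) between the replicates' signals was 0.49, and r (Pearson, log2 signal) was 0.44. Across the 7852 genes with peaks in both, rho was 0.32 and r 0.39. These are correlations across genes, which are not replicates, and they share the 2 libraries.

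The strong members lay at the same place in both replicates. For each of the 9 members at an IDR of 0.05, the strongest peaks of the replicates overlapped by at least 1 bp, with summits from 2 to 59 bp apart. Of the other 19 members with peaks in both lists, 8 (42.1%) did so. For all genes the shares were 82.8% of 964 at that limit and 53.3% of the 6888 others. Overlap is favoured by the IDR limit itself, so it is no separate support for these peaks.

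**Figure D3:**
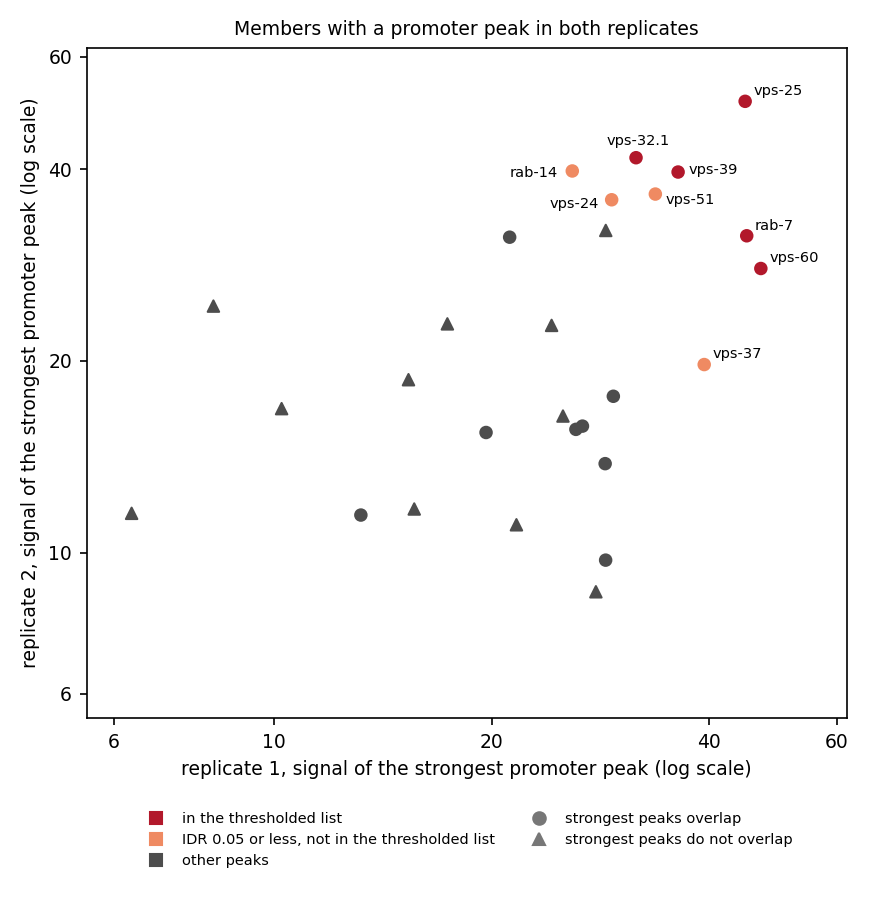
Signal of the strongest promoter peak in replicate 1 (horizontal) and replicate 2 (vertical), both on log scales, for the 28 members with a peak in both. Circles are genes whose strongest peaks overlap and triangles those whose peaks do not; the 9 coloured genes are all circles, with replicate 2 signals from 19.7 (*vps-37*) to 51.1 (*vps-25*).

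The distance of members' summits from starts was near that of all genes. The median distance of the 53 strongest summits from the start, in either direction, was 252 bp, beside 360 bp over all genes with a peak. Of them, 23 (43.4%) lay within 200 bp, beside 36.95% of all genes, and 40 (75.5%) lay upstream, beside 80.4%. Of the 9 strong members, *vps-25* alone lay within 200 bp, and the others lay from 244 bp (*vps-51*) to 970 bp (*vps-24*) upstream.

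**Figure D4:**
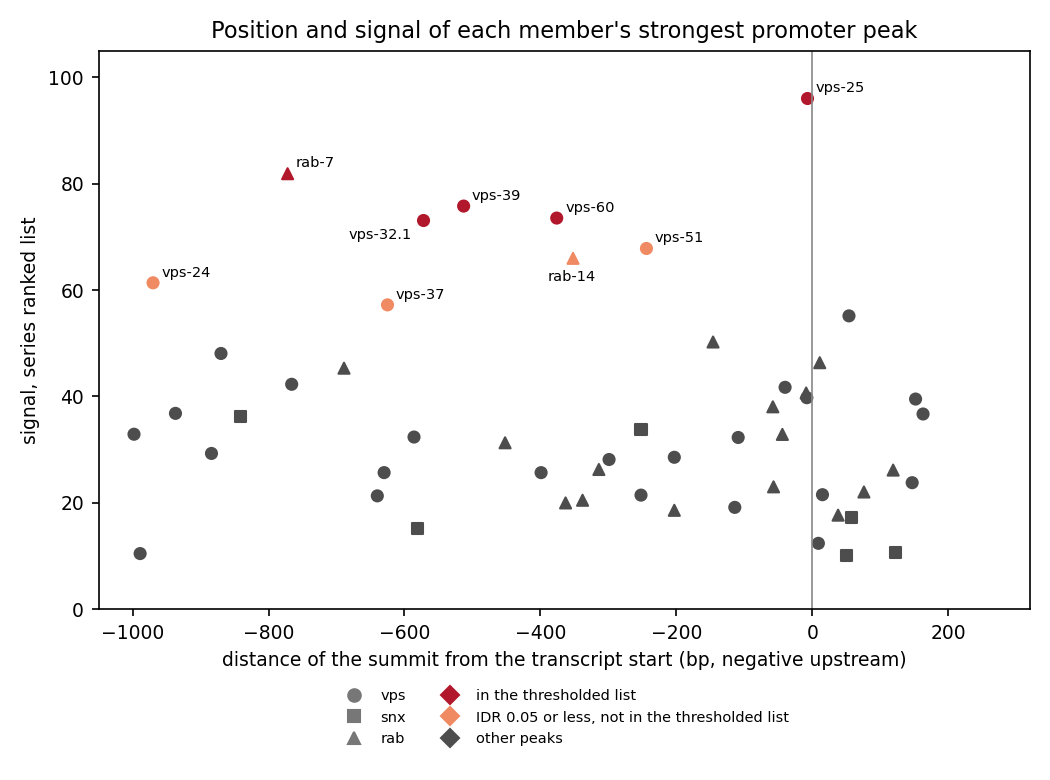
Distance of the summit from the transcript start (horizontal, bp, negative upstream) and signal in the series ranked list (vertical) of the 53 members with a promoter peak. Apart from *vps-25* at 7 bp, the 9 coloured genes lie between 244 and 970 bp upstream.

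Several members shared their peak with a neighbouring gene. For 20 of the 53 members (37.7%) the summit also lay in another protein-coding gene's promoter window, beside 20.8% of all genes. The nearest start was the member's own for 44 of 53 (83.0%), beside 89.1%. Among the 5 listed members this held for *vps-25*, *vps-39* and *vps-60*, beside 79.4% of all 374 listed genes. The summit assigned to *rab-7* lay 772 bp upstream of it but 159 bp upstream of *W03C9.5*, and 934 bp upstream of *mex-1*. That assigned to *vps-32.1* lay 572 bp upstream of it and 481 bp upstream of *icd-1*. These 2 of 5 listed members shared their summit with another window, beside 41.2% of all listed genes. Which of the genes a shared peak belongs to was not tested, and operons were not considered.

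Of the 4 members added at an IDR of 0.05, 3 shared their summit too. The *vps-51* summit lay 244 bp upstream of its start and 174 bp upstream of *lin-35*, which encodes the Rb homolog of the worm. The *vps-24* summit (29.3 in replicate 1 and 35.8 in replicate 2) lay inside *eif-1* and *pigb-1*, 49 bp downstream of the start of *pigb-1*. That of *rab-14* lay 352 bp upstream of its start and 982 bp upstream of *nipi-3*. The *vps-37* summit, 625 bp upstream with 39.4 in replicate 1 and 19.7 in replicate 2, lay in no other promoter window. No summit of a listed member or of these 4 lay within 150 bp of an annotated tRNA, snoRNA or snRNA gene. Pseudogenes of such genes were not screened.

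Genes of the same pathways with other names, from a list drawn up by function and not by signal, were described the same way. Of the 117 names, 111 matched the annotation. Of these, 3 were in the thresholded list, beside 1.87% of all protein-coding genes, and 8 at an IDR of 0.05, beside 5.02%, so both counts were near the share of all genes. Of the 111, 19 (17.1%) were at or above the 90th percentile of all genes, and their median signal was 32.7, beside 30.3 for all genes with a peak. The listed genes lay outside the endosomal complexes above. *epn-1*, which encodes the endocytic adaptor epsin, had a signal of 165, with 73.1 in replicate 1 and 87.1 in replicate 2. *sec-15*, which encodes a subunit of the exocyst tether, had 164, with 92.8 and 68.7. *apb-1*, which encodes the beta subunit shared by clathrin adaptors, had 107, with 55.0 and 50.1. *epn-1* and *sec-15* were in both replicates' thresholded lists, unlike any of the 58 genes. The summits of *sec-15* and *apb-1* also lay in the windows of *C28G1.2* and *mdt-19*. No ESCRT gene with another name was listed among the 8 on the list (0 at an IDR of 0.05, median signal 32.24).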

How the data were processed

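Peak lists on ce11 were analysed as deposited, 2 per replicate and 4 for the series. Per the file headers and descriptions, replicate lists came from 1 replicate and series lists from the alignments of both. The sources used here do not name the aligner, the peak caller or their settings. The signal is the authors' peak height, the deposited score is 125 times the negative log2 of the IDR, capped at 1000, and the deposited −log10 columns hold q-values and IDR. No peak ended beyond a chromosome of WBcel235, and library depth is unknown.

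Starts came from Ensembl release 115 and sequence from NCBI RefSeq. Peak assignment was tested on simulated data. Shares have exact Clopper-Pearson 95% intervals, which cover the number of genes only. No test between conditions was possible with 1 group. Members and lists were chosen with earlier results of these data known. Named genes were members in a thresholded list, the 5 highest and 2 lowest of each name class, those with no ranked summit, and listed pathway genes. Values of all members of a role were given too, and *vps-24* and *vps-37* were added after their values were seen. Alternatives changed the window, starts, list, limit and motif window. Calculations used Python 3.11.15, with scipy 1.17.1, numpy 2.4.6, matplotlib 3.10.9 and pandas 2.3.3.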

Additional observations from a re-analysis of the deposited data

How the results depend on the processing

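Of 43 alternative values, 31 stayed within the limits set for them and 12 moved. The number of listed members enters this total in 2 forms with different limits. As a count it moved under 7 of 12 alternatives, and as a percent under 2 of 12. The total therefore overstates how stable this number was. The count of 5 listed members (1.87% of all genes) was 2 with a window of 500 bp upstream to 100 bp downstream (*vps-25* and *vps-60*; 1.27%) and 3 with each summit given to its nearest start (1.49%). It was 3 with the conservative list (1.6%) and 2 at a score of 1000 (1.1%). With only the most 5′ start it was 4, without *vps-25* (1.65%), and with a window of 2000 bp upstream 6, with *vps-15* added (2.63%). It was 9 at an IDR of 0.05 or less (5.02%), an alternative added after seeing the data. With a single replicate's own list it ranged from 0 to 1, the share from 0 to 1.72%, and that of all genes from 0.545% to 0.751%. Most calls were thus lost with 1 replicate, and *vps-25* was the member listed by replicate 2. The count of listed members with GATA letters was 0 of 5 within 50 bp of the summit, beside 8.85% of all 305 listed promoter peaks. Within 150 bp it was 2 of 5, beside 34.4%, against 1 of 5 within 75 bp, beside 13.8%. Over the strongest ranked peak of every member, added after seeing the data, it was 13 of 53, beside 26.7% over all genes. The median signal and percentile of members moved within their intervals under every alternative run. The correlation between replicates was 0.41 with the input heights of the other ranked list, against 0.49. The cause of these changes was not tested. Unknown depth, the lack of a control list here, 2 replicates and the small number of genes limit what these counts show.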

Other observations

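RefSeq names 2 further genes of these classes that carry sequence names in the Ensembl annotation. *vps-13D*, a relative of the lipid transfer gene *vps-13*, had a strongest promoter peak of signal 66.7, and *vps-72* one of 23.9. Neither was in the thresholded list, so the count of listed genes stayed at 5, of 60 genes by RefSeq names.

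Among the wider lists, genes for clathrin and its adaptors had a median signal of 33.8 over 15 genes with a peak, and 4 of 17 were at or above the 90th percentile of all protein-coding genes. Genes for SNARE proteins, which drive membrane fusion, had a median of 28.4 over 22 genes, with 3 of 26 at or above it. Genes for COPI and COPII coats, which carry cargo between the endoplasmic reticulum and the Golgi, had a median of 26.7, with 2 of 14 at or above it. The partners of retromer and recycling had 3 of 11 at or above it, although their median was 24.5.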
